A study of Mus musculus with 36 samples.

Results

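The genes described here encode 2 families of conjugating enzymes in the mouse small intestine, the glutathione S-transferases and the UDP-glucuronosyltransferases. A gene was taken as a member when its mouse symbol began with Gsta, Gstm, Gstt, Gstp, Gsto, Gstk, Gstz or Mgst, with Ugt1a, or with Ugt2 and a further letter, and pseudogenes were left out. This gave 43 members of the 27179 genes counted in each library. Of these, 33 had enough reads to be tested, 23 glutathione transferases and 10 glucuronosyltransferases, while 2 (Ugt1a10 and Ugt2a2) had no read in any of the 12 libraries. Of the tested members, 13 of 23 glutathione transferases and 8 of 10 glucuronosyltransferases were higher in the intraepithelial preparations than in whole tissue and 0 lower, where 21.9% of all tested genes were higher and 23.1% lower, and no member differed between lnc13 knockout and wild type past the test threshold.

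Glutathione S-transferases join the tripeptide glutathione to electrophilic compounds, such as epoxides, unsaturated aldehydes from oxidised lipids and many drugs. The soluble enzymes fall into the alpha, mu, pi, theta, omega, zeta and kappa classes, and the microsomal ones (Mgst) form a separate membrane protein family that includes peroxidases and enzymes of leukotriene synthesis. UDP-glucuronosyltransferases sit in the endoplasmic reticulum and transfer glucuronic acid from UDP-glucuronic acid to bilirubin, steroids, bile acids, phenols and drugs. Both families are well known in the absorptive epithelium of the small intestine, where they act on compounds from the diet and the bile. NRF2 (Nfe2l2), which binds antioxidant response elements, and the nuclear receptor and aryl hydrocarbon receptor pathways are textbook inducers of many of them.

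The libraries were made from poly(A) RNA of the small intestine of gluten-challenged mice labelled DQ8, a human HLA class II type that presents gluten peptides. One genotype was lnc13-WT-DQ8 (WT) and the other lnc13-KO-DQ8 (KO), which lacks the long noncoding RNA lnc13, so that both carried the DQ8 label and both were given gluten. From each genotype there were 2 libraries of whole tissue, 2 of lamina propria lymphocytes (LPL) and 2 of intraepithelial lymphocytes (IEL), 6 groups in all. Age, sex, the number of animals behind a library and whether the preparations shared animals were not given in the labels used here, so the p-values measure the spread between these libraries. Whole tissue was frozen and extracted with TRIzol and the cell preparations with a column kit, so the preparation and the extraction method cannot be told apart. lnc13 itself was not analysed here. Depth ranged from 10186522 to 13620975 reads in genes per library, at which 3 reads corresponded to 0.185 to 0.359 CPM (library reads scaled to a common total with TMM factors). CPM is not divided by gene length, so levels are compared between libraries and not between genes.

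Marker genes showed that the 2 lymphocyte preparations held much epithelium. The summed level of 12 pan-epithelial genes (Epcam, Cdh1, keratins and others, all with reads) was 19840 to 25080 CPM in tissue, 9402 to 12820 in LPL and 9909 to 11270 in IEL. The 13 T cell genes, all with reads, summed to 77.7 to 229 CPM in tissue, 7.10 to 213 in LPL and 574 to 2266 in IEL, and Trac, the T cell receptor alpha constant gene, had no read in the LPL library of KO replicate 1. B and plasma cell genes (8 of 8 with reads) gave a sum of 5226 CPM in LPL of WT replicate 1 and 2223 CPM in that of KO replicate 1, against 561 and 716 in the replicate 2 pair. The 12 exocrine pancreas genes, all with reads, summed to 6000 to 12120 CPM in LPL and to at most 94.9 CPM elsewhere. Genes of hepatocytes, which are rich in many of these transferases, summed to 7.28 to 21.3 CPM in the cell preparations and to 40.1 to 226 CPM in tissue, with 1 of the 10 at 0 reads in every library. Most of the tissue sum was 1 gene, Tat (29.3 and 43.1 CPM in WT and 32.9 and 213 in KO), while Alb, the albumin gene, had at most 0.12 CPM there. Without Tat the sums were 10.8 to 35.5 CPM in tissue, 14.3 to 17.1 in LPL and 6.64 to 16.4 in IEL. In such bulk samples, fewer cells of a type and less RNA per cell cannot be told apart.

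Most members lie in clusters of related genes (GRCm38, the build called mm10 in the submitters' notes). The 7 mu genes span chr3:107895854-108045179, the 3 pi genes chr19:4035411-4059605, the 4 theta genes 63.3 kb of chromosome 10, and Gsta4 (gene ID 14860, chr9:78191966-78209349) lies with Gsta1 and Gsta2 on chromosome 9. The 10 UGT2 genes span 601 kb, chr5:86889770-87490871, among them Ugt2a3 (gene ID 72094, chr5:87324972-87337195) and Ugt2b34 (gene ID 100727, chr5:86889770-86906937). The 8 UGT1A genes overlap one another within chr1:88055411-88220002, because each has its own first exon spliced to exons that all share. Reads from the shared exons cannot be assigned to 1 UGT1A gene, and how the counting treated them was not given in the sources used here, so the counts of single UGT1A genes are uncertain. The same holds for reads common to near-identical copies such as Gstp1 and Gstp2, Gsta1 and Gsta2, the mu genes and the Ugt2b genes.

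Promoter windows of 300 bases, 250 before to 50 after an annotated start, were available from RefSeq (GRCm38.p6) for 40 of the 43 members, 49 windows in all, with none for Gsta4, Gstt2 and Ugt1a6b. They were searched on both strands for the antioxidant response element core TGACNNNGC and for the hexamer GTTAAT, the core of sites bound by the epithelial factor HNF1. Other searches were for GCGTG, the core of the xenobiotic response element of the aryl hydrocarbon receptor, and for CAAAGTCCA, bound by the epithelial nuclear receptor HNF4A. The caudal homeobox element TTTATNG was sought as well. AGATAA, an element of the GATA factors, completed the set. Of the 34 matches in member windows, 2 overlapped a match of another motif. The 4 windows below are shown because they carry the first 2 of these motifs in members that behaved differently between preparations, as described further on. Capitals mark matches of these first 2 motifs alone, and each window is written 5′ to 3′ on the gene's own strand.
Ugt2a3 (minus strand, chr5:87337146-87337445): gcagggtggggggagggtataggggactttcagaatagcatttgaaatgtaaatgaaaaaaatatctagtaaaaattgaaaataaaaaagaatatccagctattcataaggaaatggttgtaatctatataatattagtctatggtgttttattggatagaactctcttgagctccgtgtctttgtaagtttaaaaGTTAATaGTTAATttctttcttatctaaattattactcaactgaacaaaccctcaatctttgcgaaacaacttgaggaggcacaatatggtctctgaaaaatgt
Ugt1a1 (plus strand, chr1:88211709-88212008): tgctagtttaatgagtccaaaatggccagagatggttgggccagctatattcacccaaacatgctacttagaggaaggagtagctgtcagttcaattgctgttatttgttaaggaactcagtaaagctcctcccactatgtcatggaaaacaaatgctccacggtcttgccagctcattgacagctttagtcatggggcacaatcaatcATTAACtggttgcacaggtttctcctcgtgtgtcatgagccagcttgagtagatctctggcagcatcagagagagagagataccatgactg
Gstm7 (minus strand, chr3:107931565-107931864): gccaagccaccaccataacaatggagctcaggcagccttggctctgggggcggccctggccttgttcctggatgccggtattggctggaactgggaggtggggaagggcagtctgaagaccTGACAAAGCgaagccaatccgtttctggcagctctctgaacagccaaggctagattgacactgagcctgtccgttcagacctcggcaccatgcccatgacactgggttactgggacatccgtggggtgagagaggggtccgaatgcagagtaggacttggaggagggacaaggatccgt
Mgst1 (plus strand, chr6:138140277-138140576): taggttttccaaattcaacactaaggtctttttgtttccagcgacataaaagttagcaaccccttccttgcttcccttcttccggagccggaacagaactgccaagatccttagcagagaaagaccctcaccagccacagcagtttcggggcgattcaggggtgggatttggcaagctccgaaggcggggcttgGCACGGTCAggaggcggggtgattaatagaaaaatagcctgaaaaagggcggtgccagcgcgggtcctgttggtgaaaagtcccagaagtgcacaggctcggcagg
Ugt2a3 has the GTTAAT hexamer at bases 197 to 202 and again at bases 204 to 209 of its window. That window also holds TTTATNG at bases 149 to 155 and AGATAA on the other strand at bases 217 to 222, both left in lower case. Ugt1a1 has the hexamer once, on the other strand, at bases 210 to 215. Gstm7 has the antioxidant core at bases 122 to 130 and Mgst1 has it on the other strand at bases 195 to 203. For a member with several windows, the one with most matches of the first 2 motifs was printed. Another window of Gstm7 (chr3:107931768-107932067) holds AGATAA and no antioxidant core. The hexamer occurred in 6 of the 49 member windows (Gsta3, Ugt1a1, Ugt1a6a, Ugt1a9, Ugt1a10 and Ugt2a3) and in 7.1% of all 32851 windows of this length. The antioxidant core occurred in 4 of the 49 (Gsta3, Gstm5, Gstm7 and Mgst1) and in 12.4% of all windows. GCGTG was found for 8 members (32.4% of all windows), AGATAA for 7 (11.2%) and TTTATNG for 3 (10.9%), and CAAAGTCCA for 0 (0.475%). A match describes the letters of the window and is not evidence of binding.

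The 10 classes differed in how their summed reads were spread over the preparations. Alpha genes summed to 38.0 ± 17.2 CPM in tissue, 46.5 ± 18.3 in LPL and 167 ± 41.8 in IEL (mean ± SD, n = 4 libraries each). Mu genes summed to 85.6 ± 31.1, 156 ± 83.1 and 620 ± 68.6 CPM in the same order, and UGT1A genes to 81.9 ± 21.8, 117 ± 54.6 and 270 ± 45.6. UGT2 genes summed to 596 ± 111, 445 ± 156 and 820 ± 83.6 CPM, and theta genes to 76.3 ± 7.51, 73.0 ± 9.8 and 111 ± 10. The microsomal (501 ± 60.4, 379 ± 80.5 and 503 ± 60.8), omega (354 ± 82.2, 246 ± 51.3 and 365 ± 52.6) and pi (190 ± 74.7, 130 ± 22.3 and 177 ± 6.81) sums in IEL lay within the range of tissue or close to it. The kappa class (Gstk1) stood at 21.7 ± 4.86, 13.9 ± 2.2 and 37.2 ± 6.14 CPM, and the zeta class (Gstz1) at 22.3 ± 2.94, 29.5 ± 4.86 and 39.8 ± 4.69. Every IEL library was above every library of the other preparations in 7 of the 10 classes (alpha, mu, UGT1A, UGT2, theta, kappa and zeta), for kappa by a small step (29.3 against 28.9 CPM).

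**Figure D1:**
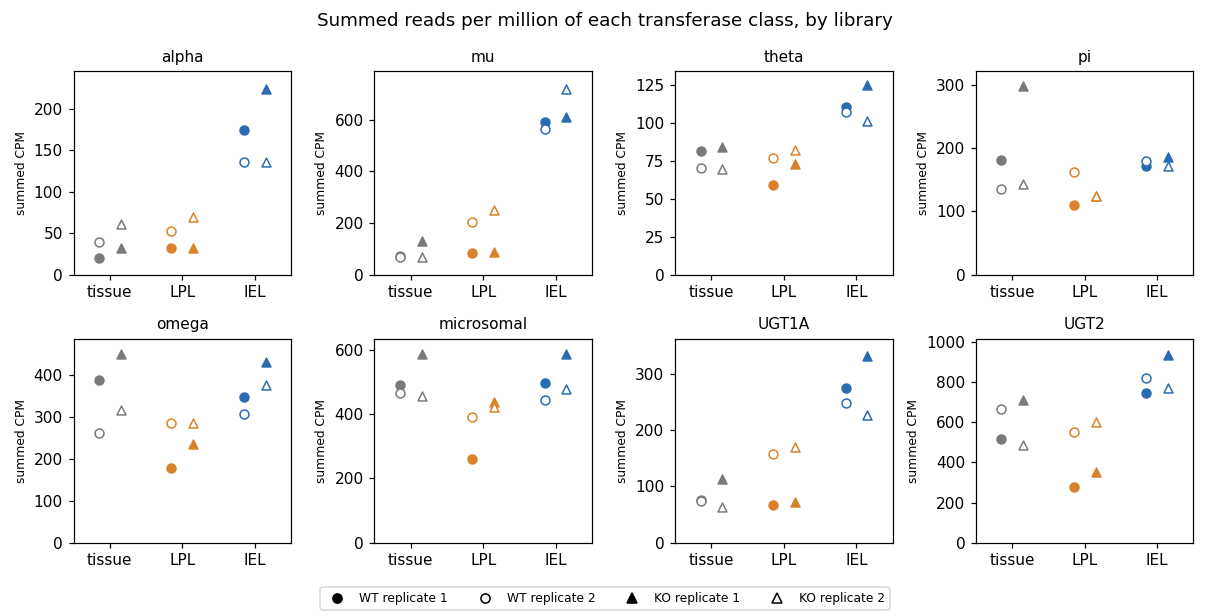
Summed CPM (linear axes from 0) of the members of 8 classes, with 1 point per library, by preparation and genotype. Alpha, mu, UGT1A, UGT2 and theta sums are highest in all 4 IEL libraries (alpha from 135.4 CPM, mu from 562, UGT1A from 226), while pi, omega and microsomal sums in IEL overlap those in tissue.

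Whole tissue and the IEL preparations were compared over both genotypes. Of the 33 tested members, 21 were higher in IEL and 0 lower (edgeR quasi-likelihood test, Benjamini-Hochberg adjusted p under 0.05 over all 14716 genes tested). Over all genes, 45% passed in either direction, 21.9% as higher and 23.1% as lower. The median log2 difference was 1.85 for the members and 0.05 for all genes. In 20 of the 21, all 4 IEL libraries lay above all 4 tissue libraries (22.9% of all genes did so, and 22.9% the reverse), and Gstp3 was the exception (log2 difference 1.14, adjusted p = 0.0498). The higher members were 6 of 7 mu genes, 3 of 4 alpha genes, Gstt1 of the theta class, Gstp3, Gstz1, Gstk1, all 4 tested UGT1A genes and 4 of 6 tested UGT2 genes. None of the 3 microsomal genes passed.

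**Figure D2:**
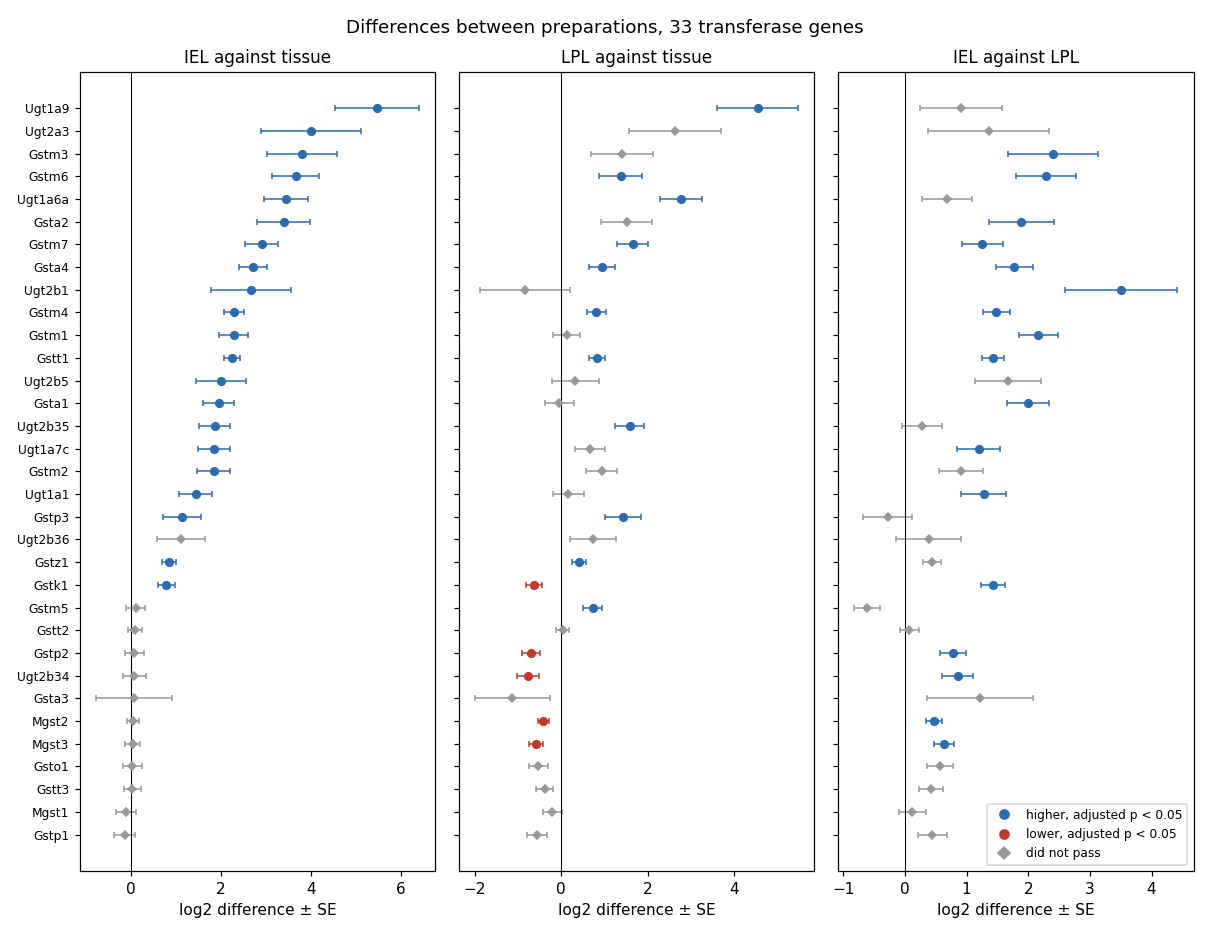
Log2 differences between preparations (x axis, ± SE from the edgeR fit) for the 33 tested members, ordered by the IEL against tissue difference. In IEL against tissue 21 members are higher and 11 of the others lie within 0.13 of 0, in LPL against tissue 11 are higher and 5 lower, and in IEL against LPL 17 are higher.

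In the mu class, 6 of 7 genes rose in IEL relative to tissue. Gstm3 stood at 21 and 8.99 CPM in the WT tissue libraries and 72.7 and 10.9 in KO tissue, at 23.7 and 94.4 in WT LPL and 21.4 and 128 in KO LPL, and at 341 and 326 in WT IEL and 306 and 431 in KO IEL. All 4 IEL libraries were far above the 8 others, among which tissue of KO replicate 1 and both LPL libraries of replicate 2 stood highest. The log2 difference of IEL over tissue was 3.81 ± 0.78 (SE, adjusted p = 0.00477). Gstm6 stood at 3.97 and 1.73 CPM in the WT tissue libraries and 7.61 and 1.68 in KO tissue, at 5.78 and 12.5 in WT LPL and 5.46 and 14.1 in KO LPL, and at 38.5 and 48.1 in WT IEL and 54.9 and 44.1 in KO IEL. Its log2 difference was 3.66 ± 0.53 (adjusted p = 0.001). Gstm7 stood at 3.11 and 1.24 CPM in the WT tissue libraries and 2.39 and 3.59 in KO tissue, at 4.95 and 9.54 in WT LPL and 6.15 and 11.6 in KO LPL, and at 16.5 and 17.1 in WT IEL and 21.9 and 22 in KO IEL. Here the log2 difference was 2.91 ± 0.37 (adjusted p = 5.97e-04), with no overlap between IEL and the rest. Gstm1 (2.29), Gstm4 (2.29) and Gstm2 (1.85) rose as well. Gstm5, the remaining mu gene, had 8.66 to 11.7 CPM in IEL and 6.74 to 10.8 in tissue, and its log2 difference of 0.11 did not pass (adjusted p = 0.697).

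Among the alpha genes, Gsta4, whose enzyme is known for conjugating aldehydes from oxidised lipids, differed by a log2 value of 2.71 ± 0.31 (adjusted p = 4.53e-04). Gsta4 stood at 8.63 and 10.5 CPM in the WT tissue libraries and 16.5 and 20.9 in KO tissue, at 17 and 29.7 in WT LPL and 16.8 and 39 in KO LPL, and at 91.8 and 68.2 in WT IEL and 117 and 74.3 in KO IEL. The lowest IEL library lay well above the highest tissue library, a KO library. Gsta1 (log2 difference 1.95) and Gsta2 (3.40) rose too, the latter from 0.217 to 0.718 CPM in tissue to 3.78 to 7.14 in IEL. Gsta3, known in the mouse for its activity on the epoxide of aflatoxin, split the tissue libraries instead. It had 0.69 and 10.6 CPM in WT tissue and 0.652 and 7.06 in KO tissue, high in replicate 2 of both genotypes and low in replicate 1. The IEL libraries (2.77 to 7.04 CPM) lay between these, and the log2 difference was 0.08 ± 0.85 (adjusted p = 0.949).

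Ugt2a3 and Ugt1a9 rose from near absence in part of the tissue libraries. Ugt2a3 stood at 13.1 and 0 CPM in the WT tissue libraries and 19.4 and 0.12 in KO tissue, at 29.6 and 63 in WT LPL and 34.6 and 73.3 in KO LPL, and at 111 and 128 in WT IEL and 164 and 111 in KO IEL. The tissue libraries fell into 2 pairs, replicate 1 of both genotypes with reads and replicate 2 with 0 and 1 read, and IEL was above both pairs (log2 difference 4.0 ± 1.12, adjusted p = 0.0179). Lct, the lactase gene and a marker of the proximal small intestine, showed the same pairs and was picked after its values were seen, with 81.2 and 0.33 CPM in WT tissue, 211 and 0.359 in KO tissue and 1123 and 1823 in WT IEL and 1576 and 1826 in KO IEL. Of the 9 proximal markers, 4 had both replicate 1 tissue libraries above both replicate 2 libraries (Fabp1, Gata4, Lct and Rbp2), 2 had them below (Cybrd1 and Slc40a1) and 3 overlapped. In IEL against tissue, 6 of the 9 were higher and 2 lower. The 9, all with reads, summed to 546 to 1443 CPM in tissue, 327 to 578 in LPL and 3139 to 5004 in IEL, and the 9 distal markers, all with reads, to 7749 to 9690, 488 to 739 and 741 to 975. Other cell markers split the tissue libraries by replicate too. All 10 smooth muscle genes were lower in both replicate 1 libraries (sums of 1612 CPM in WT and 1144 in KO) than in both replicate 2 libraries (4163 and 3862). The same held for all 9 macrophage genes and for 31.8% of all genes. The other way went 7 of 9 Paneth cell genes, 9 of 13 T cell genes and 25.5% of all genes. The part of gut region or of these cell types in the member differences was not tested. Ugt1a9 had 0 to 0.345 CPM in tissue, at or near the limit of 3 reads, and 4.3 to 6.02 in IEL (adjusted p = 0.00212).

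The remaining UGT1A genes with many reads moved by smaller steps. Ugt1a7c stood at 46.3 and 33.7 CPM in WT tissue and 67.7 and 34.6 in KO tissue against 168 and 151 in WT IEL and 193 and 145 in KO IEL, a log2 difference of 1.86 ± 0.36 (adjusted p = 0.00358). Ugt1a1, the enzyme that conjugates bilirubin, differed by 1.44 ± 0.37 (adjusted p = 0.0124), from 28.2 to 45.7 CPM in tissue to 74.1 to 128 in IEL. Ugt1a6a, known for planar phenols, differed by 3.45 at low levels (0.109 to 0.825 CPM in tissue and 2.12 to 4.99 in IEL). In the UGT2 cluster Ugt2b5 (2.0), Ugt2b35 (1.87) and, near the floor, Ugt2b1 (2.67) also rose. Ugt2b36, with a log2 difference of 1.12, did not pass (adjusted p = 0.116) although its libraries did not overlap.

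A group of 11 members lay within 0.13 of 0 on the log2 scale. These were Gsta3, Gstm5, Gstt2, Gstt3, Gstp1, Gstp2, Gsto1, the 3 microsomal genes and Ugt2b34. They included the 6 members with most reads in tissue. Ugt2b34 had 469.8 and 638 CPM in WT tissue, 658 and 472 in KO tissue, 529 and 598 in WT IEL and 648 and 596 in KO IEL, so the ranges overlapped. Gsto1, an omega enzyme with thiol transferase and dehydroascorbate reductase activity, had 261 to 449.6 CPM in tissue and 306 to 431 in IEL. Gstp1 had 121 to 269 CPM in tissue, where KO replicate 1 stood far above the other 3, and 145 to 159 in IEL. Mgst3 had 183 to 269.5 and 203 to 253 CPM, Mgst1 146 to 178 and 118.8 to 200.3, and Mgst2 100.1 to 141 and 118.6 to 134.

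The position of these 11 at 0 depends on how libraries are scaled. Scaled to the pan-epithelial genes, 29 members were higher in IEL than in tissue and 0 lower, the 21 among them, while the median of all genes moved from 0.05 to 0.579 and that of the members to 2.37. Such a scaling moves all genes by nearly the same step, so the distance between these 2 medians was bound to stay about the same. That distance is therefore no test of the members against the scaling. Gsta3, Gstp1, Gstt3, Gsto1, Mgst1, Mgst2 and Mgst3 had a different sign under at least 1 of TMM, DESeq2 factors and the epithelial scaling, and no member called under TMM changed sign in this comparison. Of the 5 tested members with the GTTAAT hexamer in a window, 4 were higher in IEL than in tissue, and of the 26 tested members with a window and no hexamer, 16 were. For the antioxidant core these were 1 of 4 (Gstm7) and 19 of 27. Gstm7 and Mgst1, whose windows are printed above, thus both hold the core, and the first rose (2.91) while the second had a log2 difference of -0.09.

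**Figure D3:**
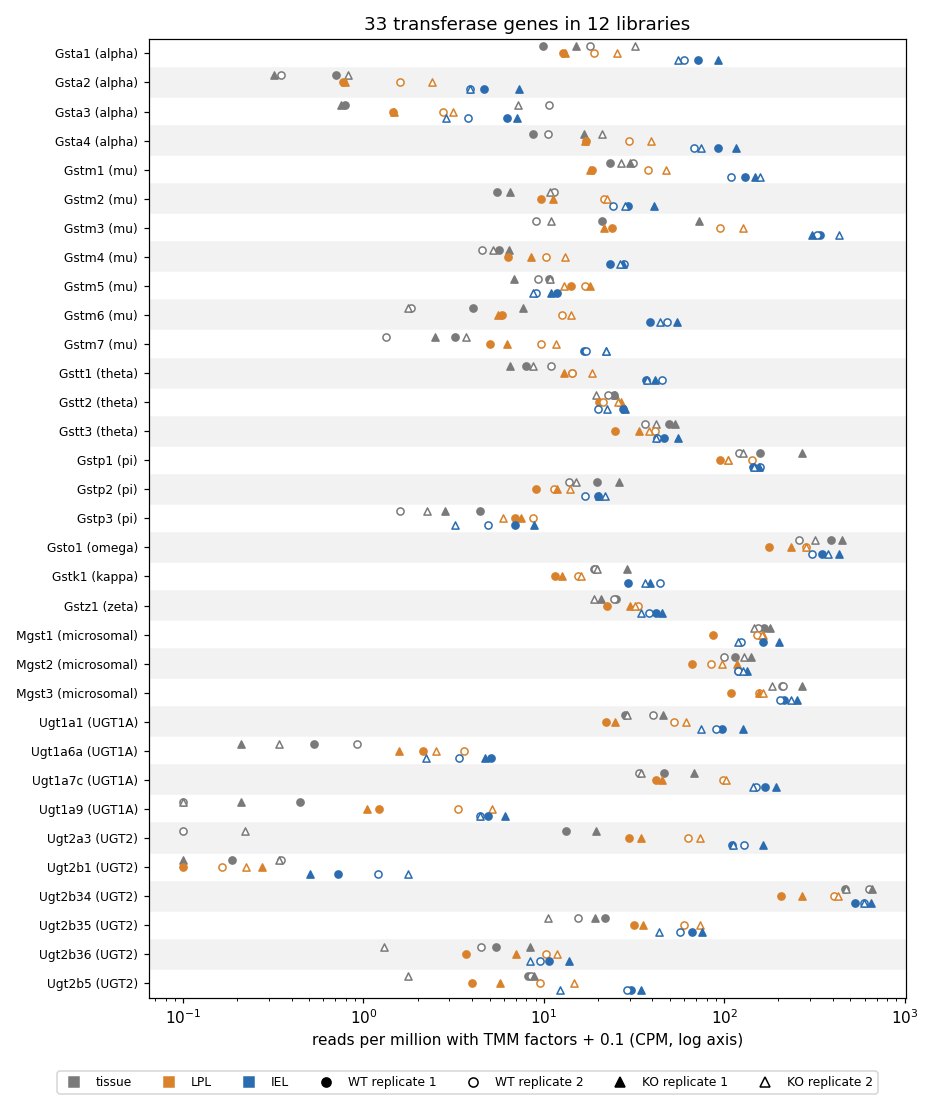
CPM + 0.1 (log axis) of the 33 tested members in each of the 12 libraries, coloured by preparation, with circles for WT, triangles for KO, filled marks for replicate 1 and open marks for replicate 2. Gstm3, Gstm6 and Gsta4 show all IEL libraries to the right of the rest, Ugt2a3 shows 2 tissue libraries near the left edge, and open LPL marks lie to the right of filled ones for most members.

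LPL preparations were compared with tissue in the same fit. There, 11 members were higher and 5 lower, where 55.3% of all genes passed in either direction (27.3% higher and 28% lower). The median log2 difference was 0.41 for the members and 0.03 for all genes. The libraries did not overlap for 7 of the 11 and 3 of the 5 (26.5% and 25.1% of all genes). Higher members included Ugt1a9 (4.55), Ugt1a6a (2.77), Gstm7 (1.66), Ugt2b35 (1.58), Gstp3 (1.42), Gstt1 (0.83) and Gstm5 (0.72). Ugt2b35 had 10.4 to 21.7 CPM in tissue and 31.4 and 59.8 in WT LPL and 35.2 and 73.1 in KO LPL, with every LPL library above tissue (adjusted p = 0.00387). Gstp3 had 1.49 to 4.31 CPM in tissue and 5.87 to 8.57 in LPL, and Gstt1 6.41 to 10.9 and 12.8 to 18.3. For Gstm5 the levels were 6.74 to 10.8 CPM in tissue and 12.8 to 17.9 in LPL, so that this gene was higher in LPL than in tissue and level between IEL and tissue.

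The 5 lower members were Ugt2b34 (-0.77), Gstp2 (-0.70), Gstk1 (-0.63), Mgst3 (-0.58) and Mgst2 (-0.42). Ugt2b34 stood at 208 and 407 CPM in WT LPL and 268 and 429 in KO LPL, below all tissue libraries (adjusted p = 0.0284). Gstk1, a kappa enzyme of mitochondria and peroxisomes, stood at 11.5 and 15.4 in WT LPL and 12.6 and 16 in KO LPL, against 19 to 28.9 in tissue (adjusted p = 0.0208). Mgst3 stood at 109 and 156 CPM in WT LPL and 156 and 164 in KO LPL, again below tissue (adjusted p = 0.0143). No member was lower when LPL KO replicate 1, LPL WT replicate 1 or tissue KO replicate 1 was left out (12, 14 and 13 higher). With LPL replicate 1 libraries alone the split was 5 higher and 8 lower and with replicate 2 libraries alone 14 and 0. DESeq2 size factors gave 10 higher and 7 lower, and the pan-epithelial scaling 17 higher and 0 lower, with Mgst2 on the other side of 0 (0.11) and a median over all genes of 0.557. The shares of all genes called in these alternative runs are not given here. These counts thus do not show whether the shifts were particular to the members.

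Between the cell preparations, 17 members were higher in IEL than in LPL and 0 lower, with 19.4% of all genes passing (11.5% higher and 7.92% lower). The members' median was 0.91 and that of all genes -0.03. For these 17, all IEL libraries lay above all LPL libraries, as for 17.3% of all genes (15.1% the reverse). Gstm1 stood at 18.4 and 37.6 CPM in WT LPL and 18 and 47.2 in KO LPL against 130.3 and 109 in WT IEL and 147.3 and 159 in KO IEL (log2 difference 2.16 ± 0.32, adjusted p = 0.00246). Gsta1 had 12.8 to 25.5 CPM in LPL and 55.4 to 92.8 in IEL (1.996 ± 0.34, adjusted p = 0.00489). Gstm6 (2.29), Gsta4 (1.77) and Gstm3 (2.40, adjusted p = 0.0486) followed. Gstm5 went the other way in all libraries, with a log2 difference of -0.61 that did not pass with edgeR (adjusted p = 0.0746) and passed as lower with the DESeq2 Wald test (-0.62, adjusted p = 0.0459), which called 19 members higher and 1 lower. The count of 17 fell to between 6 and 8 when any 1 of the 4 IEL libraries or of the 2 LPL replicate 1 libraries was left out, and to 11 without tissue WT replicate 2. Those 6 libraries were IEL WT replicate 1 (8) and 2 (6), IEL KO replicate 1 (8) and 2 (7), LPL WT replicate 1 (7) and LPL KO replicate 1 (6). The shares of all genes called in these runs are not given here. Whether the loss of calls was particular to the members or general is thus not shown here.

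For most members the LPL libraries split by replicate number. For 26 of the 33 tested members both replicate 2 libraries lay above both replicate 1 libraries, and for 0 below, where 33% and 26.1% of all genes did so. Gstm3 illustrates this, with 23.7 and 21.4 CPM in replicate 1 and 94.4 and 128 in replicate 2 of WT and KO. Ugt1a7c had 42 and 45.2 CPM in replicate 1 and 97.8 and 102 in replicate 2. The sum of the B and plasma cell genes ran the other way (5226 and 2223 CPM in replicate 1, 561 and 716 in replicate 2), as did that of 9 Paneth cell genes (11400 and 13150 CPM, then 5779 and 8133). The sum of 15 enterocyte genes ran the same way as the members (3164 and 3123 CPM, then 4792 and 5165). Pan-epithelial sums overlapped between the replicate numbers (9402 and 12360 CPM, then 12820 and 12120). The part of these cells in the member differences was not tested. In IEL the order was turned, with replicate 2 below replicate 1 in both genotypes for 18 members and above for 1 (26.4% and 25% of all genes). In tissue it was below for 15 and above for 5 (25.5% and 31.8%).

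Shares within a class do not depend on how libraries are scaled. In each class with several tested members, the share of the class's reads from the member with most reads was compared between preparations over 4 libraries each, 21 comparisons in all. Ugt2b34 gave 93.9% ± 3.02 of the UGT2 reads in tissue, 74.2% ± 2.2 in LPL and 72.4% ± 3.42 in IEL (SD, n = 4 each). All libraries of both cell preparations were below all tissue libraries (exact permutation test, two-sided, p = 0.0286, the smallest this design can give, and 0.0923 after adjustment over the 21). Gstt3 gave 58.9% ± 4.77 of the theta reads in tissue and 41.7% ± 2.06 in IEL (n = 4 each, exact permutation p = 0.0286, adjusted p = 0.0923), where Gstt1 rose by 2.25 on the log2 scale. Gstm3 gave 28.2% ± 19.1 of the mu reads in tissue and 56.5% ± 4.29 in IEL (n = 4 each, exact permutation p = 0.0571, adjusted p = 0.0923), with tissue KO replicate 1 close to IEL. Ugt1a7c gave 55.1% ± 7.38 of the UGT1A reads in tissue, 61.7% ± 1.38 in LPL and 61% ± 2.47 in IEL (n = 4 each), and none of its 3 differences passed. No share passed after adjustment.

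The study asked what the loss of lnc13 does in gluten-challenged mice, so KO was set against WT in each preparation. No member passed in tissue, LPL or IEL, and 0% of all genes did (edgeR, adjusted p = 1 for each member, and with the DESeq2 Wald test 0 members and 6, 1 and 1 of all genes). At an unadjusted p under 0.05 there was 1 member in tissue (Ugt1a6a), 1 in LPL (Mgst2) and 0 in IEL, against 3.15%, 3.04% and 0.815% of all genes. The members' median log2 differences were 0.11, 0.22 and 0.14, and those of all genes -0.01, 0.01 and -0.02. KO was above WT on this scale for 21, 29 and 26 of the 33, but scaled to the pan-epithelial genes for 13, 30 and 19. Leaving out 1 library turned each balance. Tissue had 9 of 33 above 0 and a median of -0.21 without KO replicate 1, and 16 and -0.01 without WT replicate 2. LPL had 11 and -0.11 without WT replicate 1 and 12 and -0.19 without KO replicate 2, and IEL had 13 and -0.05 without KO replicate 1. In tissue KO and WT libraries did not overlap for 3 members with KO higher and 2 with KO lower (13.2% and 12.3% of all genes), in LPL for 5 and 0 (9.89% and 8.62%) and in IEL for 6 and 0 (14.8% and 12.3%).

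**Figure D4:**
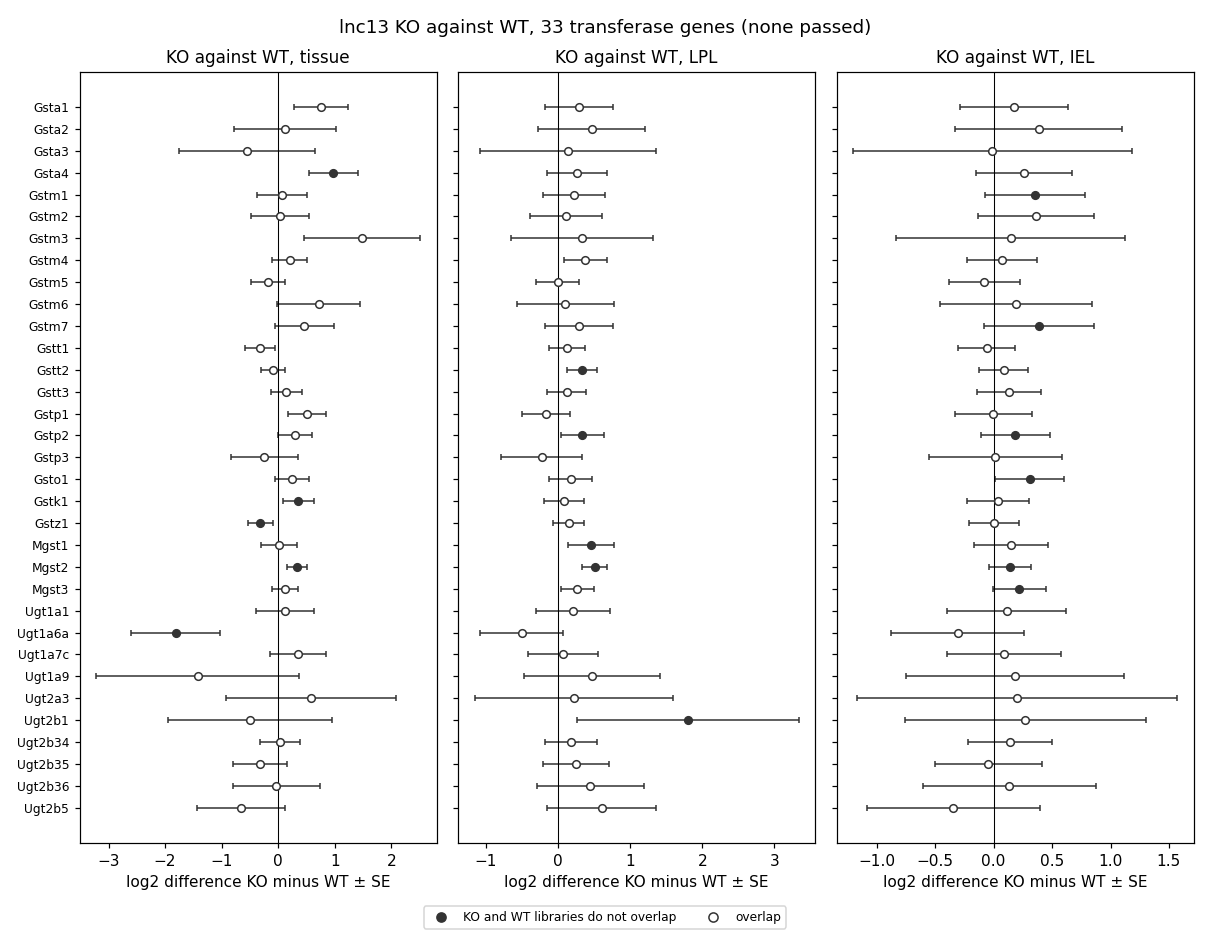
Log2 difference of KO against WT (x axis, ± SE from the edgeR fit) for the 33 tested members in tissue, LPL and IEL, with filled points where the 2 KO and 2 WT libraries do not overlap. No member passed the test, and the medians over members are 0.11, 0.22 and 0.14.

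Mgst2, a membrane enzyme that can join glutathione to leukotriene A, was the only tested member with both KO libraries above both WT libraries in all 3 preparations, 1 of 33 where 0.523% of all genes did so. The reverse held for 0 members and 0.17% of all genes. It stood at 115 and 100.1 CPM in WT tissue and 141 and 129 in KO tissue, at 66.5 and 84.7 in WT LPL and 118 and 97.4 in KO LPL, and at 119.3 and 118.6 in WT IEL and 134 and 128 in KO IEL. The log2 differences were 0.33 ± 0.18, 0.51 ± 0.18 and 0.14 ± 0.18 (SE), with unadjusted p-values from edgeR of 0.0978, 0.0185 and 0.45 and adjusted p-values of 1. Gsta4 had 8.63 and 10.5 CPM in WT tissue and 16.5 and 20.9 in KO tissue, no overlap, with a log2 difference of 0.97 ± 0.43 (edgeR unadjusted p = 0.0519, adjusted p = 1). Ugt1a6a in tissue had 0.431 and 0.825 CPM in WT and 0.109 and 0.239 in KO (-1.81 ± 0.79). The KO values lay below the limit of 3 reads and the WT values above it, all at low levels.

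Among the other members with the smallest p-values, 1 library carried the value of Gstp1. Gstp1 had 157 and 121 CPM in WT tissue and 269 and 126 in KO tissue, a log2 difference of 0.51 ± 0.33 that became -0.21 without KO replicate 1. Gsta1 had 9.75 and 18 CPM in WT tissue and 14.9 and 32.1 in KO tissue (0.76 ± 0.48), where the libraries overlapped. In LPL, Gstt2 stood at 20.1 and 21.2 CPM in WT and 26.6 and 25.6 in KO (0.34), and Gstm4 at 6.23 and 10.2 in WT and 8.4 and 13 in KO (0.38). Mgst1 stood there at 86.3 and 152 CPM in WT and 165 and 163 in KO (0.46). The low WT value of Mgst1 came from replicate 1, the library with most B and plasma cell reads (5226 CPM), and the part of those cells was not tested. In IEL, Gsto1 stood at 347 and 306 CPM in WT and 431 and 377 in KO (0.31), and Mgst3 at 215 and 203 in WT and 253 and 233 in KO (0.22). Gstm7 had 16.5 and 17.1 CPM in WT IEL and 21.9 and 22 in KO IEL (0.39), and Gstm1 130.3 and 109 and 147.3 and 159 (0.35). In IEL both KO libraries lay above both WT libraries for these 4. None of these passed.

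Whether the knockout difference itself changed between preparations was tested with interaction terms. No member passed in IEL against tissue, LPL against tissue or IEL against LPL (edgeR, 0 members and 0% of all genes, with 0 members and 0.836%, 1.96% and 0.761% of genes at an unadjusted p under 0.05). The smallest unadjusted p-values belonged to Ugt1a6a (1.501 ± 0.97) and Gsta4 (-0.71 ± 0.60) for IEL against tissue, and to Gstz1 (0.47 ± 0.31) and Gstp1 (-0.68 ± 0.47) for LPL against tissue. For IEL against LPL they were Mgst2 (-0.37 ± 0.25) and Ugt2b5 (-0.95 ± 1.06). Each of these is a log2 difference of KO effects with its SE.

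Other genes of the same pathways were read from the same fit, in which 21.9% of all genes were higher and 23.1% lower in IEL against tissue, and 27.3% and 28% in LPL against tissue. Several of the list counts are near these shares. Of 18 genes of glutathione synthesis and turnover, IEL against tissue had 1 higher and 8 lower, and LPL against tissue had 1 higher and 14 lower. Ggt1, the brush border enzyme that starts glutathione breakdown, differed by -0.87 in IEL and -5.55 in LPL against tissue, and Gclc, the rate-limiting enzyme of glutathione synthesis, by -1.0 and -0.64. The list for UDP-glucuronic acid supply held Ugp2, Ugdh, Slc35d1, Slc35a3, Gusb, Hk2, Pgm2 and Pgm1, not all of which supply it. Of these 8 genes, 5 fell and 0 rose in IEL relative to tissue. Among those that fell were Slc35d1, a transporter of UDP-glucuronic acid into the endoplasmic reticulum (-2.08), and Ugp2 (-0.96). Of 17 tested NRF2 targets outside the transferases, 3 rose and 5 fell in the same comparison, with Srxn1 at -2.08. Glutathione peroxidases were mixed, 2 higher (Gpx1 at 1.23 and Gpx4 at 0.70) and 3 lower (Gpx3 at -4.10) of 7. The other conjugating enzymes (4 higher and 5 lower of 13) included Ephx2, an epoxide hydrolase, at 1.97 and the sulfotransferase gene Sult2b1 at -1.56. Conjugate exporters had 1 higher and 2 lower of 8, with the efflux pump genes Abcb1a at -2.86 and Abcg2 at -1.73. Scaled to pan-epithelial genes, which moves the median of all genes up, IEL against tissue had 2 genes of glutathione synthesis and turnover higher and 5 lower, and LPL against tissue had 3 higher and 9 lower. Under that scaling the IEL counts were 1 higher and 4 lower for UDP-glucuronic acid supply, 4 and 4 for NRF2 targets, 3 and 3 for peroxidases, 5 and 4 for the other conjugating enzymes and 3 and 2 for exporters, so the balance of the last 2 lists turned.

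Among 18 xenobiotic sensors and gut regulators, IEL had 4 above and 7 below tissue, a balance that turned to 7 above and 3 below with scaling to pan-epithelial genes. Ahr, the aryl hydrocarbon receptor gene, had 11.1 and 12 CPM in WT tissue and 12.2 and 11 in KO tissue against 32.6 and 39.7 in WT IEL and 35.5 and 35.8 in KO IEL (log2 difference 1.63, adjusted p = 3.56e-04). Nr1h4, the bile acid receptor gene, differed by -2.19 and Maf by -1.23. In none of these 7 lists did a gene pass between KO and WT in any preparation (edgeR, adjusted p under 0.05). The summed level of 15 enterocyte genes, all with reads, was 32050 to 69040 CPM in tissue, 3123 to 5165 in LPL and 18820 to 31810 in IEL. Single enterocyte genes were mixed in IEL against tissue, with 8 of 15 lower, among them Anpep (-1.98) and Krt20 (-2.67), and 3 higher, which were Fabp1 (5.38), Apoa4 (1.59) and Treh (1.29). The part of the epithelial composition in these differences was not tested.

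The 10 members that were not tested had few or no reads. Ugt1a10 and Ugt2a2 had 0 reads in all libraries. Ugt1a2, Ugt1a5, Ugt1a6b, Ugt2a1, Ugt2b37 and Gstt4 had 4 to 9 reads in all 12 libraries together, Ugt2b38 had 31 and Gsto2 33. A count of 0 in a library allows a level of up to 0.185 to 0.359 CPM (3 reads), depending on the library, and a single read lies below that limit. The promoter windows of Ugt2b37 and Ugt2b38 were identical at 94.8% of the bases compared, the highest of the pairs compared.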

How the data were processed

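Whole small intestine, LPL and IEL preparations of WT and KO mice were compared, 12 libraries in 6 groups of 2, grouped by the sample titles. The authors deposited raw counts per Entrez gene for each library, made with featureCounts per the file headers, which name HISAT2 alignments, while the submitters' processing notes name TopHat, featureCounts, DESeq and mm10. Strand handling, the treatment of reads that overlap several genes, and tool versions were not given in the sources used here. The other 24 samples of the series were not analysed here.

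Gene IDs were paired with symbols through a RefSeq table of GRCm38.p6 (25275 of 27179 IDs, holding 99.17% of reads), and Ugt1a8 was not analysed here. The counts were fitted in R 4.3.3 with edgeR 4.0.16 (TMM, filterByExpr, quasi-likelihood F test, 6 groups with 1 shared spread, no replicate block, Benjamini-Hochberg over 14716 genes, threshold 0.05). The fit was also run on simulated data, but the outcome is not given here. The size of KO difference that it could find with 2 libraries per group is thus not shown. CPM is the counts divided by the library size times the TMM factor, on the usual CPM scale, and intervals from counting cover counting error only. Each SE of a log2 difference was derived from the edgeR test, as the absolute log2 difference divided by the square root of the F statistic. Comparisons of preparations average WT and KO with equal weight. Alternatives were DESeq2 1.42.0 (size factors and the Wald test), other filters, scaling to pan-epithelial genes, a replicate block, single genotypes, and leaving out each library. Tissue replicate 1 libraries alone were a listed alternative too. Restricting to tissue replicate 2 or to 1 replicate number in LPL, and the shares within a class (scipy 1.17.1), were added after the data were seen.

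The members, gene lists and rules were chosen with earlier results of these data known. Values, by library or as ranges, are given for the 6 members with most reads in each preparation, the 5 largest rises and falls that passed without overlap (mean of at least 5 CPM), the 4 smallest p-values in each KO comparison (mean of at least 1 CPM), and the 2 smallest for each difference of KO effects. Ugt1a9, Ugt1a6a, Gsta2, Gsta3, Gstm5 and Ugt1a1 were added after their values were seen.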

Additional observations from a re-analysis of the deposited data

How the results depend on the processing

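The 21 members higher in IEL than in tissue were 18 to 20 when any 1 library was left out, 21 with the replicate block, 21 by the DESeq2 Wald test, 15 with WT and 14 with KO libraries alone, and 0 were lower in each of these. The 17 members higher in IEL than in LPL were 19 by the Wald test, which also called Gstm5 lower, 6 to 19 with 1 library left out, 6 with KO libraries alone, 4 with WT libraries alone, 6 with LPL replicate 2 libraries alone and 15 with the replicate block. The 16 members called between LPL and tissue were 12 to 16 with 1 library left out, 8 with KO libraries alone, 3 with WT libraries alone and 15 with the block. Single genotypes leave fewer libraries in the contrast. The cause of the other changes was not tested. Without the shares of all genes called in the same runs, which are not given here, these counts do not show whether a change was particular to the members. Of the named differences between preparations, 359 of the alternative values stayed on the same side of the threshold and 71 lost the call in the same direction, among them Gstm3 in IEL against LPL with the replicate block (log2 difference 2.47 against 2.40 without it, edgeR adjusted p = 0.0659). Without tissue KO replicate 1, the KO difference of Gstp1 in tissue turned to -0.207 (up to 0.954 with other libraries left out) and its KO difference in LPL against tissue to 0.0632 (down to -1.10). All counts of members called between KO and WT were 0 under each alternative run.

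The correlation of deviations between same-numbered WT and KO libraries was 0.638 for tissue, 0.301 for LPL and 0.465 for IEL, but 2 pairs per preparation cannot show that the numbers pair animals. With 10186522 to 13620975 reads per library, some members had only a few reads in tissue, among them Ugt1a9, Ugt2b1, Ugt1a6a and Gsta2, and were limited by counting. Over the genes with enough reads in a group, the spread between its 2 libraries exceeded counting error (chi-square per degree of freedom 24.2 to 188). This was not worked out for single members.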
